A study of Mus musculus with 20 samples.

Results

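The comparison described here set the 4 mice that received 150 or 200 cGy against the 4 mice that received 100 or 125 cGy, out of 20 mice in which the thoracic aorta was profiled by RNA sequencing. The 8 mice were chosen by dose alone, with 1 proton and 1 gamma mouse at each of the 4 doses, and all were male wildtype C57BL/6 adults of the same age range. The exposure was whole-body, to a spread-out proton beam or to gamma rays from a cesium source, and the aorta was taken 4 h later. The other 12 mice had been given 0, 5, 10, 25, 50 or 75 cGy of either radiation and were used to show where the levels lay at lower doses, the mice at 0 cGy having been restrained like the rest but not irradiated. Each dose of a radiation type rests on 1 mouse, so that the error given is the spread between mice of neighboring doses and not between mice of the same dose.

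The wall of the thoracic aorta is built mainly of smooth muscle cells between elastic lamellae, with an endothelial lining, collagen-producing fibroblasts and perivascular fat. Ionizing radiation breaks DNA, and the kinase Atm then signals the breaks to the transcription factor p53, which is held in check by Mdm2 and Mdm4. Stabilized p53 raises the transcription of genes for cell-cycle arrest, such as Cdkn1a, for apoptosis and for DNA repair. A response of this kind grows with dose, and the question here was which other functions changed between 125 and 150 cGy and how the libraries themselves differed across that interval.

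Counts were the reads assigned to the sense strand of each gene, after the authors had resampled all libraries to a common depth, so that the 8 libraries held between 6055666 and 6058006 counts. In the smallest of them, 3 counts, taken as the least that the depth can show, make up 4.95e-05% of the library. The reads carry no molecular identifiers, and this limit covers counting error only. Genes averaging 5 or more counts over the 8 mice, 13076 in all, were tested. For pairs of mice within a group, the chi-square per gene was 4.36 to 19.7, where a value of 1 would be sampling noise alone, so that no library was a copy of another. Acta2, the smooth muscle actin, had between 121361 and 157599 counts in the 8 mice, and Myh11, the smooth muscle myosin, had between 46404 and 79989. In such bulk tissue, fewer cells of a type and less RNA per cell cannot be told apart.

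Expression at 150 and 200 cGy differed from that at 100 and 125 cGy in 2618 genes, in edgeR's quasi-likelihood test with radiation type as a covariate and a Benjamini-Hochberg adjusted p of 0.1. Of the genes tested, 1589 (12.2%) were higher at 150 and 200 cGy and 1029 (7.87%) were lower. The median log2 change was 0.44 in the genes that rose and -0.38 in the genes that fell, against -0.02 over all genes tested. An increase of more than 2-fold was found in 141 genes (1.08%) and a decrease of more than 2-fold in 56 genes (0.428%). Without the proton mouse at 200 cGy, 680 genes fell.

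Among neighboring doses, most calls lay between 125 and 150 cGy. With the same test on the 4 mice of each pair of neighboring doses, 1956 genes (15%) differed between 125 and 150 cGy, 1036 of them higher and 920 lower at 150 cGy. Between 100 and 125 cGy the edgeR test called 0 genes (0%), with 185 (1.41%) at an unadjusted p under 0.05. Between 150 and 200 cGy it called 3 genes (0.0229%), and 903 had an unadjusted p under 0.05. These 3 genes, named because there are so few, were Dpep1 and Alb, which were higher at 200 cGy, and Pnpla3, which was lower. Of the 6 intervals from 0 to 100 cGy, that from 0 to 5 cGy stood out with 380 genes, 116 higher and 264 lower, and the interval from 5 to 10 cGy had 11 genes. The 4 intervals from 10 to 100 cGy had 0 genes, with 17 to 386 at an unadjusted p under 0.05.

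**Figure D1:**
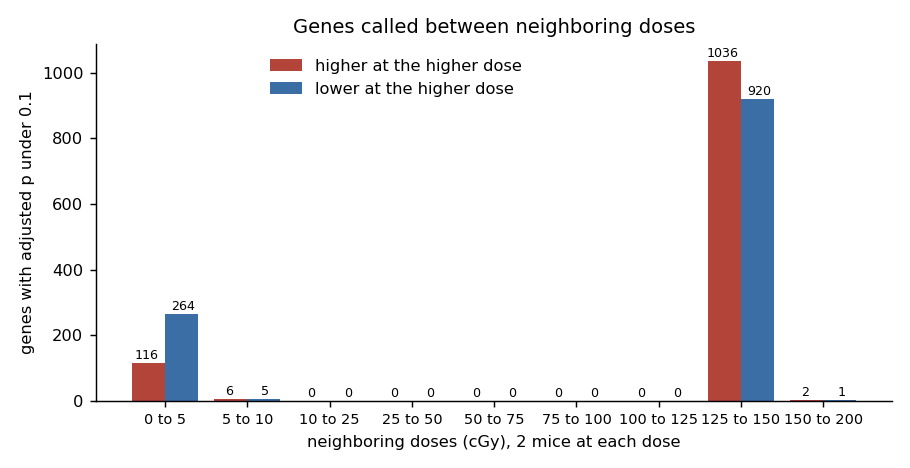
Number of genes with an adjusted p under 0.1 (vertical axis) between each pair of neighboring doses in cGy (horizontal axis), in edgeR fits of 4 mice with radiation type as covariate, with red bars for genes higher and blue bars for genes lower at the higher dose. The interval from 125 to 150 cGy had 1036 and 920 genes, that from 0 to 5 cGy had 116 and 264, and all others had at most 6 in a direction.

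The levels at 150 and 200 cGy also lay apart from those in all other mice. In 897 genes (6.86%) all 4 mice at 150 and 200 cGy had a higher level in CPM, the count scaled to a common library total, than each of the 16 mice at 0 to 125 cGy, and in 345 genes (2.64%) they had fewer. Of the 1589 genes that rose, 864 (54.4%) had no overlap with the other 16 mice, as did 315 (30.6%) of the 1029 that fell. Among the 141 genes that rose more than 2-fold the number was 112 (79.4%), and among the 56 that fell more than 2-fold it was 11 (19.6%).

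Foxn3, a forkhead transcription factor, had the smallest p of the genes averaging 20 or more counts. The counts of Foxn3 (chr12:100433213-100688284, build mm9) were 24 and 19 in the proton mice and 19 and 20 in the gamma mice at 100 and 125 cGy. At 150 and 200 cGy they were 179 and 158 in the proton mice and 161 and 150 in the gamma mice. The 16 mice at 0 to 125 cGy all lay between 15 and 29, far below every mouse at the 2 highest doses. The log2 increase was 2.997 ± 0.13 (SE, n = 4 and 4, edgeR adjusted p = 5.6e-06), which is 7.98-fold.

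Mdm4, the partner of Mdm2 in restraining p53, behaved likewise. Mdm4 (chr1:134886422-134921943) had 85 and 75 counts in the proton mice and 75 and 75 in the gamma mice at 100 and 125 cGy, and 270, 322, 368 and 267 counts in the mice at proton 150, proton 200, gamma 150 and gamma 200 cGy. The 16 mice up to 125 cGy reached at most 105. Its log2 increase was 2.004 ± 0.13 (SE, n = 4 and 4, edgeR adjusted p = 5.3e-05). Over 0 to 75 cGy, in 12 other mice, the log2 slope of Mdm4 was -0.04 per 100 cGy (edgeR unadjusted p = 0.864) while the mean dose differed by 62.5 cGy between the 2 groups of the step.

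Prkg1 encodes the cGMP-dependent kinase through which nitric oxide relaxes smooth muscle. Its counts were 25, 23, 11 and 15 in the mice at proton 100, proton 125, gamma 100 and gamma 125 cGy and 104, 120, 91 and 89 in those at proton 150, proton 200, gamma 150 and gamma 200 cGy. The groups did not overlap, and the log2 increase was 2.49 ± 0.18 (SE, n = 4 and 4, edgeR adjusted p = 8.4e-05). Pde3a, a phosphodiesterase that degrades cyclic nucleotides, had between 169 and 268 counts at 100 and 125 cGy and between 623 and 684 at 150 and 200 cGy, a log2 increase of 1.58 ± 0.11. Eif2c2, the argonaute protein that cleaves the targets of small RNAs, went from 60 to 78 counts to 260 to 348 counts, a log2 increase of 2.15 ± 0.13. Zfp445, a zinc finger protein, went from 56 to 68 counts to 268 to 293 counts.

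The other 6 of the 12 rising genes with the smallest p were Btbd7, Prrc2c, Pdpr, Sntb2, Ap1g1 and Itsn2. Pdpr is a subunit of the phosphatase that activates pyruvate dehydrogenase, Sntb2 a syntrophin of the dystrophin complex, Ap1g1 a subunit of the clathrin adaptor at the Golgi, and Itsn2 an endocytic scaffold. Over all 12 genes the increase was 1.93-fold to 7.98-fold. In each of the 12, all 4 mice at the highest doses lay above all 16 others, and none had a dose slope with an unadjusted p under 0.05 over 0 to 75 cGy.

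**Figure D2:**
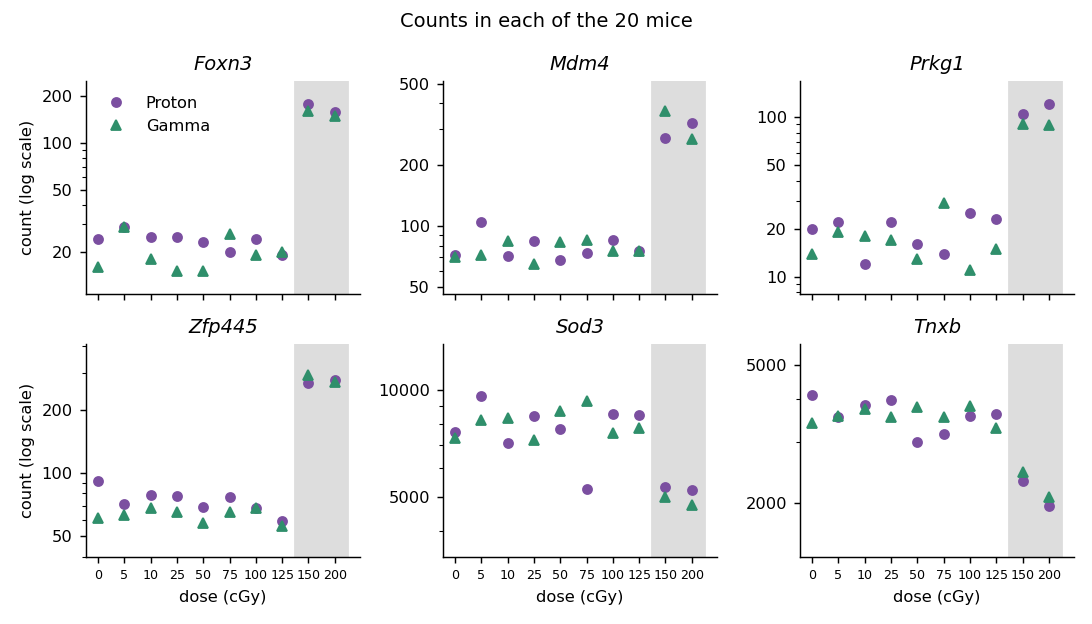
Counts (vertical axis, log scale) of 4 rising genes and 2 falling genes in each of the 20 mice by dose in cGy (horizontal axis, doses evenly spaced), with circles for proton and triangles for gamma mice and a gray field over 150 and 200 cGy. Foxn3, for example, lies between 15 and 29 in the 16 mice up to 125 cGy and between 150 and 179 in the gray field, and Tnxb lies at 3008 to 4110 and then at 1964 to 2458.

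Genes that fell changed less. The 12 falling genes with the smallest p had decreases of 1.39-fold to 1.67-fold, and in 9 of them all 4 mice at the highest doses lay below the 16 others. Sod3, the superoxide dismutase of the extracellular matrix, had 8548 and 8474 counts in the proton mice and 7573 and 7812 in the gamma mice at 100 and 125 cGy. At 150 and 200 cGy it had 5330 and 5231 in the proton mice and 4979 and 4736 in the gamma mice. The log2 change was -0.65 ± 0.06 (SE, n = 4 and 4, edgeR adjusted p = 3.6e-04). Its lowest count over 0 to 75 cGy was 5264, within the range of the highest doses.

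Several of these genes are secreted or act on the matrix. Ecm1, an extracellular matrix protein, fell from 3520 to 4418 counts to 2086 to 2572, and Aebp1, a collagen-binding protein, fell from 10201 to 12036 counts to 6758 to 7962. Tnxb, the tenascin that organizes collagen fibrils, fell from 3298 to 3808 counts to 1964 to 2458. Grn encodes the lysosomal and secreted progranulin, and its counts of 1632 to 2113 at 100 and 125 cGy were above the 1042 to 1180 at 150 and 200 cGy. Transcription factors were also found, with Nr2f2, a nuclear receptor of veins and smooth muscle, Atf5, a stress-responsive factor, and the nuclear factor I proteins Nfix and Nfic. The last 3 were Ptms, a small acidic nuclear protein, Raver1, an RNA-binding protein, and Chst12, a sulfotransferase for chondroitin. Nr2f2 had 402 to 462 counts in the lower and 226 to 283 in the higher dose group. Of the 12, Nr2f2 and Nfix also had a falling slope at an unadjusted p under 0.05 over 0 to 75 cGy, and without the proton mouse at 75 cGy Nfix alone did.

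The step followed the base composition and the length of the transcripts. GC content and length were taken from the longest protein-coding transcript of each gene, which was known for 12526 (95.8%) of the genes tested. In the decile of lowest GC content, up to 42.1%, 30.2% of the genes rose and 0.559% fell, and the median log2 change was 0.17. In the decile of highest GC content, above 58.3%, 0.638% rose and 28.8% fell, and the median was -0.27. By length, 49.2% of the genes in the longest decile, above 6431 bases, rose, against 0.718% in the shortest, up to 1293 bases. The genes that rose had a median transcript length of 5707 bases and a median GC content of 45.4%, and all genes tested had 3064 bases and 50.4%.

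Stretches of coding sequence from 4 of the genes show the contrast, chosen so that both directions and both outcomes of a composition correction are represented. Each is the run of 60 bases within a coding exon whose GC content is nearest to that of the whole coding sequence, printed 5′ to 3′ on the coding strand with G and C in capitals. Herc1 and Mdm4 rose, and Emilin1 and Tnxb fell. Coordinates are those of mm9.
Herc1, chr9:66219619-66219678, plus strand: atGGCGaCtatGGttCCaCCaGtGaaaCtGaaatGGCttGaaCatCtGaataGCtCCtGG
Mdm4, chr1:134888250-134888309, minus strand: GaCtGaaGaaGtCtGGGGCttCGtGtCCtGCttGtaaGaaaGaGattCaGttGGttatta
Emilin1, chr5:31216249-31216308, plus strand: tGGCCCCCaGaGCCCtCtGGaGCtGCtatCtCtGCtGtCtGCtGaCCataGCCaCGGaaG
Tnxb, chr17:34807528-34807587, plus strand: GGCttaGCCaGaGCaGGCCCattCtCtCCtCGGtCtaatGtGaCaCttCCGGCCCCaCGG

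The whole coding sequences of Herc1 and Mdm4 were 47.3% and 43.1% G and C, and those of Emilin1 and Tnxb 61.7% and 61.5%. A correction that removed from each library the trend with GC content and length left 392 genes rising (3%) and 275 falling (2.1%), and 341 and 193 of these had the same call without it. Herc1 went from a log2 change of 0.51 to 0.06 under the correction and lost its call, while Mdm4 went from 2.004 to 1.87 and kept it. Emilin1 went from -0.45 to -0.16 and lost its call, while Tnxb went from -0.67 to -0.71 and kept it. The correction cannot separate a property of the libraries from a response to dose that itself follows composition, and it removes both.

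**Figure D3:**
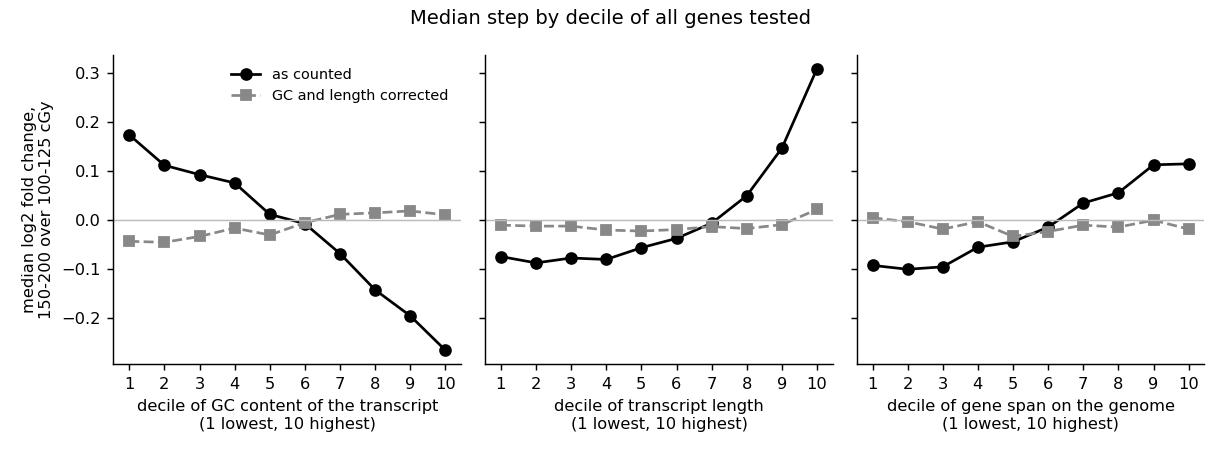
Median log2 fold change of 150 and 200 over 100 and 125 cGy (vertical axis) in the 10 deciles of transcript GC content, transcript length and gene span on the genome (horizontal axes), as counted (black circles) and after the trends with GC content and length were removed from each library (gray squares). The uncorrected medians go from 0.17 to -0.27 with GC content and from -0.07 to 0.31 with length, and the corrected medians stay between -0.045 and 0.022.

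The same property was seen in single libraries. Log2 levels, centered gene by gene on the average of all 20 mice, were correlated with GC content within each library over 12526 genes, which are not independent replicates. The correlation was 0.139, 0.111, 0.0649 and 0.0053 in the mice at proton 100, proton 125, gamma 100 and gamma 125 cGy and -0.303, -0.259, -0.286 and -0.271 in the mice at proton 150, proton 200, gamma 150 and gamma 200 cGy. In the 12 mice at lower doses it lay between -0.0175 and 0.214, with the 2 highest values in the 2 mice at 5 cGy. The correlation with log2 transcript length lay between -0.124 and 0.0271 at 100 and 125 cGy and between 0.14 and 0.205 at 150 and 200 cGy. Neither measure overlapped between the groups. The exact two-sided permutation p was 0.0286 for each, the smallest that 4 against 4 mice can give, and 0.2 after adjustment over the 14 library measures tested. Doses were given in randomized order and libraries handled blind, but the labels and methods name no preparation or sequencing batch, so dose and a difference in the making of the libraries cannot be told apart.

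Among the mice at lower doses, the proton mouse at 75 cGy stood apart by its striated muscle and fat markers, which bears on slopes over 0 to 75 cGy and not on the step. Measures of RNA make-up overlapped between the groups. Genes detected numbered 16063 to 16603 at 100 and 125 cGy and 16031 to 16305 at 150 and 200 cGy (exact permutation p = 0.486). The 100 most abundant genes took 24.8% to 27.8% and 25.9% to 26.7% of the counts (exact permutation p = 0.686). Cytosolic ribosomal protein genes took 2.33% to 2.5% and 2.41% to 2.62% (exact permutation p = 0.2).

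After the correction 122 of the 141 genes that rose more than 2-fold were still called, but only 13 of the 56 that fell more than 2-fold. The median log2 change of the 141 rising genes was 1.41 as counted and 1.35 after correction. That of the 56 falling genes was -1.16 as counted and -1.02 after correction, although most of their calls were lost. The GC content of the 141 rising genes had a median of 47.9% and their length a median of 3531 bases. Both were closer to those of all genes than were those of the genes that rose as a whole. In the decile of genes with the longest span on the genome, above 121259 bases, 2.83% rose more than 2-fold, against 0.535% in the decile with the shortest span, up to 4061 bases. Of 166 genes without a 3′ untranslated region in the annotated transcript, 28.3% rose and 15.7% rose more than 2-fold, against 0.68% to 1.15% with more than 2-fold in the 5 classes of genes that have an annotated one. The median change of these 166 genes was 0.33 as counted and 0.30 after correction. Zfp445, Prrc2c and Prkg1 are among them.

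Functions of the cell were compared through 37 lists of genes with at least 1 member tested. Each is described by the number of members that passed the test over all genes, beside the 12.2% of all genes that rose and the 7.87% that fell. The lists and their members were chosen with earlier results of these data known, so the shares describe the lists and do not test them.

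**Figure D4:**
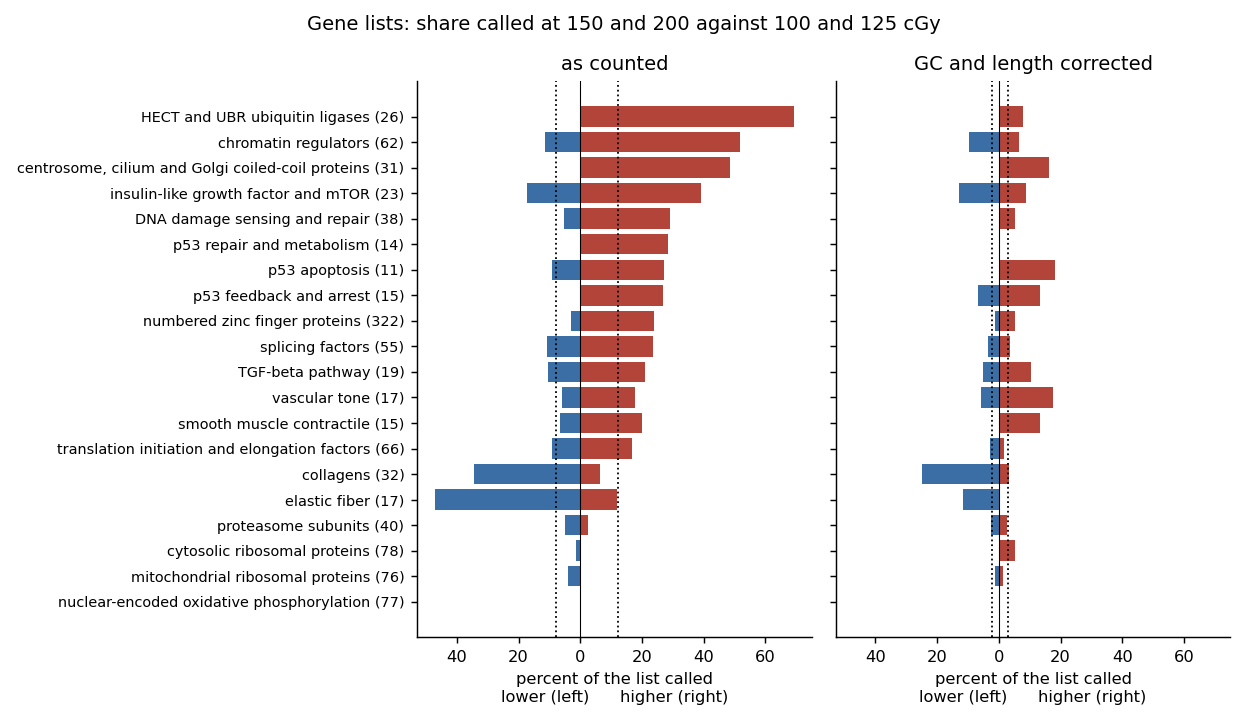
Percent of the tested members of 20 gene lists (list size in parentheses) that were called higher (red, to the right) or lower (blue, to the left) at 150 and 200 cGy, as counted (left panel) and after correction for GC content and length (right panel), with dotted lines at the percent over all genes. HECT and UBR ubiquitin ligases rose in 18 of 26 as counted and in 2 of 26 after correction, and collagens fell in 11 of 32 and in 8 of 32.

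HECT and UBR ubiquitin ligases, which attach ubiquitin to their substrates, rose in 18 of 26 (69.2%) and fell in none, with a median log2 change of 0.43. Ube3a, the ligase of Angelman syndrome, had 116, 115, 128 and 137 counts at proton 100, proton 125, gamma 100 and gamma 125 cGy and 214, 217, 215 and 224 at proton 150, proton 200, gamma 150 and gamma 200 cGy, and its log2 increase was 0.84 ± 0.09 (SE, n = 4 and 4, edgeR adjusted p = 4.8e-04). Herc2, a ligase of the DNA damage response, rose by 0.63 ± 0.07 and Mycbp2 by 0.56 ± 0.07 on the log2 scale. After the correction, Ube3a and Ubr4 were the ligases still called, and the median was 0.08. The list had a median transcript length of 7044 bases and a median GC content of 46.6%.

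Chromatin regulators rose in 32 of 62 (51.6%) and fell in 7 (11.3%), with a median of 0.27. Their transcripts had a median length of 7322 bases, and of all genes in the longest decile, above 6431 bases, 49.2% rose. Mll1, a histone H3 lysine methyltransferase, rose by 0.63 ± 0.09 on the log2 scale and Mll3, of the same family, by 0.56 ± 0.07. Mll2, also of this family, with a GC content of 58.4% against 50.6% and 46.4%, was at -0.22 ± 0.09 and did not pass (adjusted p = 0.15 in edgeR). After correction Mll2 was at -0.38 and passed, and Mll1 and Mll3 no longer did. Ncoa2, a nuclear receptor coactivator, rose by 0.71 ± 0.07 and Bptf, the reader subunit of a remodeling complex, by 0.67 ± 0.07. Both were still called after correction, at 0.40 and 0.32. Over the list 4 rose and 6 fell after correction. As counted, 4 fell without the mouse at proton 100, proton 150 or gamma 150 cGy.

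Coiled-coil proteins of the centrosome, cilium and Golgi rose in 15 of 31 (48.4%) and fell in none, and 8 rose without the mouse at proton 200 cGy. Their median transcript length was 5407 bases, and in the decile of 4944 to 6431 bases 30.5% of all genes rose. Golgb1 and Golga4, tethers of Golgi membranes, rose by 0.73 ± 0.08 and 0.58 ± 0.07 on the log2 scale. Numbered zinc finger proteins, most of them presumed repressors of transcription, rose in 77 of 322 (23.9%) and fell in 10 (3.11%). The number that rose was 41 without the mouse at proton 200 cGy, 50 without gamma 100 cGy and 51 without gamma 150 cGy, and 5 fell without proton 125 cGy. Zfp871 had 8 to 12 counts in the lower and 33 to 54 in the higher dose group, and Zfp809, which silences retroviral sequence in embryonic cells, had 124 to 140 and 252 to 319. Zinc finger genes share long stretches of sequence, and how the counting divided reads between such copies is uncertain. Splicing factors rose in 13 of 55 (23.6%) and fell in 6, and 8 rose without the mouse at proton 125 cGy and 7 without that at proton 200 cGy. Prpf4b, a kinase of the spliceosome, rose by 0.76 ± 0.07, Son, a scaffold of nuclear speckles, by 0.63 ± 0.09, and Hnrnpa0, which binds nuclear RNA, fell by 0.46 on the log2 scale. After correction 17 zinc finger genes rose and 4 fell, 5 of the coiled-coil proteins rose, and 2 splicing factors rose and 2 fell, with Son and Hnrnpa0 no longer called. Of the long noncoding RNAs of the nucleus, Malat1 rose from 1450 to 1712 counts to 2486 to 3070, Meg3 fell from 1249 to 1609 counts to 1080 to 1137, and Neat1 had 8957 to 9687 and 6804 to 10925 counts, with no call.

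Of 78 cytosolic ribosomal protein genes 0 rose and 1, Rplp2, fell, and of 76 mitochondrial ribosomal protein genes 0 rose and 3, Mrpl17, Mrpl52 and Mrpl54, fell. The 3 of mitochondrial ribosomes were down to 1 without the mouse at proton 100, proton 125 or proton 150 cGy and to 0 without that at proton 200 or gamma 200 cGy. Of 77 nuclear genes of oxidative phosphorylation the edgeR test called 0, with 2 at an unadjusted p under 0.05, and DESeq2 called 1, while 5 fell without the mouse at proton 150 cGy and 1 without that at gamma 125 cGy. Proteasome subunits had 1 member, Psme4, that rose and 2, Psmd3 and Psmd11, that fell, of 40. Initiation and elongation factors of translation rose in 11 of 66 (16.7%) and fell in 6 (9.09%), with a median of 0.05, and 6 rose and 3 fell without the mouse at proton 200 cGy, and 7 rose without that at gamma 100, proton 150 or gamma 200 cGy. As counted, 69 of the 78 cytosolic ribosomal protein genes had a log2 change above 0. After correction for GC content and length 4 of them rose and 0 fell. Of the mitochondrial ribosomal protein genes 1 then rose and 1 fell, and 0 genes of oxidative phosphorylation were called. Among proteasome subunits 1 rose and 1 fell, and among translation factors 1 rose and 2 fell.

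Of 15 targets with roles in feedback and arrest, 4 (26.7%) rose and 0 fell, and of 11 targets with roles in apoptosis 3 rose and 1 fell. Of 14 targets with roles in repair and metabolism, 4 rose and 0 fell. Those that rose were Mdm2, Cdkn1a, Ccng1 and Trp53inp1 in the first list, Aen, Apaf1 and Eda2r in the second and Rrm2b, Polk, Ercc5 and Ano3 in the third, and the target that fell was Trp53i11. Of the 3 targets in apoptosis, 1 was called without the mouse at proton 100, proton 125, gamma 100, proton 200 or gamma 200 cGy. After correction for GC content and length 2 rose and 1 fell in the first list, 2 rose in the second and 0 rose in the third, and Mdm2, Trp53inp1, Eda2r and Rrm2b were no longer called. The median changes were 0.21, 0.12 and 0.22, and the first was 0.03 without the proton mouse at 100 cGy.

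Cyclin G1, encoded by Ccng1, had 1213, 1502, 1595 and 1572 counts at proton 100, proton 125, gamma 100 and gamma 125 cGy and 2191, 2516, 1818 and 2286 at proton 150, proton 200, gamma 150 and gamma 200 cGy. Its log2 increase was 0.61 ± 0.12 (SE, n = 4 and 4, edgeR adjusted p = 0.00839). Unlike Mdm4, Ccng1 had already risen with dose over 0 to 75 cGy, by 1.48 per 100 cGy on the log2 scale (edgeR unadjusted p = 5.5e-07), and its highest count there was 1863. Mdm2, the ligase that degrades p53, had 473 to 504 counts in the lower and 563 to 686 in the higher dose group, and its slope over 0 to 75 cGy was 0.53 per 100 cGy. Trp53inp1, a stress-induced cofactor of p53, rose by 0.74 ± 0.16 on the log2 scale and Eda2r, a death receptor, by 0.89 ± 0.22.

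Cdkn1a, the inhibitor of cyclin-dependent kinases, had 1639, 1809, 2164 and 2373 counts at proton 100, proton 125, gamma 100 and gamma 125 cGy and 2977, 2777, 2188 and 2937 at proton 150, proton 200, gamma 150 and gamma 200 cGy. The gamma mouse at 150 cGy overlapped with the lower dose group. The log2 increase of 0.48 ± 0.14 (SE, n = 4 and 4, edgeR adjusted p = 0.0547) was no longer called without the mouse at proton 100, proton 125, gamma 100, proton 150, proton 200 or gamma 200 cGy, with adjusted p of 0.108 to 0.171. Over 0 to 75 cGy the slope of Cdkn1a was 2.73 per 100 cGy. Bax, the apoptosis effector, had 330 to 402 counts and then 363 to 424, at 0.12 ± 0.08 (adjusted p = 0.381 in edgeR), and at 0.44 with a call after correction. Xpc and Ddb2, which recognize DNA lesions for excision, were at 0.27 ± 0.12 and -0.05 ± 0.17 and were not called.

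Of a separate list of sensors and repair proteins of DNA damage, members rose in 11 of 38 (28.9%) and fell in 2, Xrcc1 and Ercc2, neither of which was called without proton 100, proton 150 or proton 200 cGy. Atm, the kinase named above, had 40, 51, 37 and 42 counts in the mice at proton 100, proton 125, gamma 100 and gamma 125 cGy and 71, 88, 80 and 80 at proton 150, proton 200, gamma 150 and gamma 200 cGy. The groups did not overlap, and the 12 mice at lower doses had 30 to 44. The log2 increase was 0.93 ± 0.15 (SE, n = 4 and 4, edgeR adjusted p = 0.00317). Atm has a transcript of 10006 bases with a GC content of 42.9%, and after correction its change was 0.51 with no call. Atr, the related kinase for stalled replication, was at 0.23 ± 0.11 and was not called. Mdc1, a scaffold at double-strand breaks, and Smc5, a subunit of a cohesin-like complex, rose by 0.57 ± 0.08 and 0.62 ± 0.11 and were the members still called after correction. Of 15 proliferation genes the edgeR test called 0, with 2 at an unadjusted p under 0.05, and DESeq2 called 0 of the 9 for which it gave an adjusted p.

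Elastic fiber genes fell in 8 of 17 (47.1%) and rose in 2, Fbn1 and Ltbp1, with a median of -0.26, which was -0.41 without the gamma mouse at 200 cGy. Their median GC content was 58.5%, and in the decile of highest GC content, above 58.3%, 28.8% of all genes fell. The lowest median deviation of this list among all 20 mice was that of the proton mouse at 75 cGy, at -0.437, against -0.385 to -0.216 in the 4 mice at 150 and 200 cGy. In the other mice up to 125 cGy the deviation was -0.099 or higher. Those that fell were Tnxb, Loxl1, Emilin1, Ltbp2, Ltbp3, Ltbp4, Efemp2 and Mfap2, and in each fit without 1 mouse other than that at gamma 150 cGy only 1 member rose. Loxl1, which crosslinks elastin, had 1980 to 2658 counts in the lower and 1547 to 1598 in the higher dose group, a log2 change of -0.58 ± 0.08 (SE, n = 4 and 4, edgeR adjusted p = 0.00161). Emilin1, a glycoprotein of the elastic fiber, was at -0.45 ± 0.07 and Ltbp3, which binds latent TGF-β, at -0.39 ± 0.06. Elastin itself, encoded by Eln, had 19671 to 27271 and 20768 to 26504 counts, at 0.01 ± 0.14. Fbn1, the fibrillin of the microfibrils, rose by 0.35 ± 0.07. After correction Loxl1 and Tnxb were still called, and Fbn1 was not.

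Collagens fell in 11 of 32 (34.4%) and rose in 2, Col19a1 and Col4a6, with a median of -0.33 as counted and -0.36 after correction, when 8 fell and 1 rose. The basement membrane collagens Col4a1 and Col4a2, which are transcribed from 1 locus in opposite directions, changed by -0.52 ± 0.08 and -0.64 ± 0.09. Col6a1 and Col6a2, of the beaded filaments, changed by -0.45 ± 0.07 and -0.61 ± 0.08. Col1a1, of fibrillar collagen and singled out after its values were seen, had 10643, 17397, 15170 and 9420 counts at proton 100, proton 125, gamma 100 and gamma 125 cGy and 5687, 5269, 4517 and 6209 at proton 150, proton 200, gamma 150 and gamma 200 cGy. Its lowest count among the 12 mice up to 75 cGy was 9381. The log2 change was -1.25 ± 0.20 (SE, n = 4 and 4, edgeR adjusted p = 0.00667) and stayed at -1.13 after correction. The median change of the collagens without the proton mouse at 125 cGy was -0.16. The collagens were not at their lowest at the 2 highest doses alone, since their median deviation from the 16 mice up to 125 cGy was -0.363 in the proton mouse at 75 cGy and -0.354 to -0.179 in the 4 mice at 150 and 200 cGy. That proton mouse, which stood apart by its striated muscle and fat markers, also had the smooth muscle list at -0.727. In the other mice up to 125 cGy the collagen deviation was -0.087 or higher.

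Of 15 contractile and identity genes of smooth muscle 3 (20%) rose, Itga8, Myocd and Myh11, and 1 (6.67%) fell, Smtn. Their median log2 change was -0.02. After correction for GC content and length 2 rose and 0 fell, and Myh11 and Smtn were no longer called. Itga8, an integrin of smooth muscle, had 22105 to 27142 counts and then 36266 to 38695, a log2 increase of 0.61 ± 0.09. Myocd, the coactivator that sets the contractile program, rose by 1.28 ± 0.26, with 277 to 361 counts in the lower and 395 to 903 in the higher dose group. Smtn, a protein of stress fibers, changed by -0.40 ± 0.09. Myh11 was at 0.38 ± 0.12 (adjusted p = 0.0715 in edgeR) and was not called without the mouse at proton 125, gamma 100, proton 150, proton 200, gamma 150 or gamma 200 cGy, with adjusted p of 0.119 to 0.182. Acta2 was at -0.06 ± 0.10. The summed level of the list was 58100 to 77400 CPM in the lower and 68100 to 75900 in the higher dose group.

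Among 17 genes of vascular tone, Prkg1, Kcnma1 and Ptgs2 rose and Agtr1a fell. The fall was called without the mouse at proton 125 or gamma 125 cGy but in no other fit that left a mouse out, DESeq2 gave no adjusted p for it, and 5 rose without that at proton 100 cGy. Kcnma1, the large-conductance potassium channel that is opened by calcium and by the kinase of Prkg1, had 91 to 135 counts in the lower and 221 to 323 in the higher dose group, an increase of 1.14 ± 0.12 on the log2 scale. Ptgs2, the inducible cyclooxygenase, went from 62 to 100 counts to 124 to 182. All 3 were still called after correction. Of 23 genes of insulin-like growth factor and mTOR signaling, 9 rose and 4 fell, and after correction 2 rose and 3 fell. Without the mouse at proton 125 cGy 2 fell. The receptor Igf1r had 69, 74, 66 and 69 counts at proton 100, proton 125, gamma 100 and gamma 125 cGy and 169, 167, 164 and 223 at proton 150, proton 200, gamma 150 and gamma 200 cGy, a log2 increase of 1.398 ± 0.13 (SE, n = 4 and 4, edgeR adjusted p = 2.4e-04). The insulin receptor Insr rose by 0.51 ± 0.07, with no call after correction, and the binding protein Igfbp4 changed by -0.96 ± 0.15. The ligands Igf1 and Igf2 were not called, at -0.34 ± 0.29 and -0.92 ± 0.45. In the TGF-β pathway 4 of 19 rose, Tgfbr1, Smad4, Bmpr1a and Bmpr2, and 2 fell, Tgfb1 and Smad7. Without the mouse at proton 125, proton 150 or gamma 150 cGy 0 fell and without that at gamma 100 or gamma 125 cGy 1 fell, and after correction 2 rose and 1 fell. Bmpr2, the receptor mutated in pulmonary hypertension, went from 22 to 43 counts to 85 to 123, an increase of 1.60 ± 0.22.

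Of 17 immediate early genes and 11 glucocorticoid-induced genes the edgeR test called 0, with 1 in each list at an unadjusted p under 0.05, and DESeq2 called 0 and 1. Of 13 heat shock chaperones, Hsp90aa1, Hspa8 and Hsph1 rose and Bag3 fell, and 1 rose without the mouse at gamma 100, proton 150, proton 200 or gamma 200 cGy. Hsp90aa1, the inducible chaperone of kinases, rose by 0.50 ± 0.10 on the log2 scale, after a falling slope of -0.73 per 100 cGy over 0 to 75 cGy. Its counts of 2448 to 2879 at 150 and 200 cGy lay within the 1740 to 3538 of the 12 mice at 0 to 75 cGy. At 100 and 125 cGy they were 1768 and 1437 in proton and 2109 and 2243 in gamma mice. Of 17 clock genes, Clock and Tef rose (11.8%, near the 12.2% of all genes) and Npas2 and Nr1d1 fell (11.8%). Of the clock genes 0 fell without the mouse at proton 200 cGy, and 1 without that at proton 100, gamma 125, proton 150 or gamma 200 cGy. After correction 1 rose and 1 fell, and Clock was no longer called. Of 22 antioxidant genes, Sod3 was the only call. Of 13 interferon-stimulated genes, Eif2ak2 rose and Isg15 fell. Of 12 genes of the integrated stress response Atf3 and Eif2ak4 rose, and of 8 replication-dependent histones Hist1h2bc fell. After correction 0 members of these lists were called. For the integrated stress response, 2 members rose without proton 150 or proton 200 cGy and 1 rose in each fit without another mouse. Of this list, 1 member fell without gamma 125 cGy. The fall of Isg15 was lost in 5 of the 8 fits that left out a mouse, all but those without proton 100, gamma 125 or gamma 200 cGy. Histones had 0 falling members in 6 of these fits, 1 without gamma 125 cGy and 2 without gamma 150 cGy, and DESeq2 called 0 histones and gave no adjusted p for Isg15.

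Endothelial identity genes had 1 member that rose, Emcn, and 2 that fell, Cldn5 and Eng, of 17. The rise was lost without the mouse at proton 100, gamma 125, proton 150, proton 200 or gamma 200 cGy, 0 fell without that at proton 125, proton 150 or gamma 200 cGy, 3 fell without that at proton 100 cGy and 1 without any other, and 0 were called after correction. Their summed level was 732 to 1820 CPM in the lower and 923 to 1710 in the higher dose group (exact permutation p = 0.686). Of 11 white fat, 10 brown fat, 7 blood, 14 macrophage and 4 nerve markers 0 were called by edgeR, and DESeq2 called 0 of those for which it gave an adjusted p, leaving out 1 brown fat, 2 blood and 1 nerve marker. Of these lists, 1 nerve marker had an unadjusted p under 0.05 in edgeR. Of 9 striated muscle markers Acta1 rose in edgeR, but DESeq2, which gave no adjusted p for 3 of the 9, called 0. With a mouse left out, 1 striated muscle marker rose without proton 100 or proton 150 cGy and 0 without any other, and 0 were called after correction. Without the mouse at gamma 100 cGy 2 brown fat markers rose, and without that at proton 150 cGy 2 fell. Summed levels overlapped for each of these lists. White fat markers lay at 1060 to 4330 and 857 to 2090 CPM, brown fat markers at 180 to 1060 and 188 to 714, striated muscle markers at 27.2 to 87.5 and 43.6 to 58.8, blood markers at 39.5 to 2280 and 22.3 to 1660, macrophage markers at 170 to 806 and 127 to 417, and nerve markers at 14 to 35.2 and 10.6 to 24.8. In the 8 mice lymphocyte markers summed to at most 5.28 CPM, and none passed the filter. Over these lists and the smooth muscle list, the exact permutation p of the summed level was 0.171 to 1.

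The step was not shown to differ between radiation types. The test of the difference between the step after proton and that after gamma radiation called 0 genes (0%) in edgeR, with 427 (3.27%) at an unadjusted p under 0.05, and 0 genes in DESeq2, with 227. Within proton mice alone 527 genes rose and 216 fell, and within gamma mice alone 290 rose and 36 fell, with 2 mice against 2. The log2 increase of Foxn3 was 2.993 after proton and 3.001 after gamma radiation, that of Mdm4 1.92 and 2.09, and that of Ccng1 0.83 and 0.39. That of Cdkn1a was 0.77 and 0.19 (edgeR unadjusted p of the difference = 0.0202, not called). Median changes of the p53 targets of feedback, apoptosis and repair were 0.425, 0.25 and 0.229 after proton radiation. After gamma radiation they were 0.189, 0.064 and 0.181.

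Slopes of the log2 level on dose were fitted to the 12 mice at 0 to 75 cGy, which take no part in the step, and 56 of 13147 genes had a rising slope (0.426%) and 9 a falling slope (0.0685%). These counts leaned on the proton mouse at 75 cGy, whose summed striated muscle markers reached 3310 CPM, against a median of 55.7 in the 12 mice, and whose white fat markers reached 11800 CPM, against a median of 1500. The heart myosin light chain Myl7, for example, had a slope of 10.387 per 100 cGy, with 2180 counts in the highest of the 12 mice and a median of 7. Without this mouse 15 genes rose and 2 fell, and 13 of the 15 were among the 56. Without both mice at 75 cGy 2 rose and 0 fell.

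Of the 56 genes, 29 passed the filter of the step, where 6 rose, Mdm2, Ccng1, Cdkn1a, Aen, Eda2r and 9030617O03Rik, and 1 fell, Agtr1a. Of the 15 genes without the proton mouse at 75 cGy, 14 passed that filter, and the same 6 rose and 0 fell. Of the 9 genes with a falling slope, Sipa1l2 and Hsph1 rose at the step. Among the genes that rose at the step, 3.17% had a rising slope at an unadjusted p under 0.05, against 9.67% of all genes tested, and without the proton mouse at 75 cGy the shares were 3.68% and 3.31%. A falling slope was found in 8.76%, against 5.18% of all genes, and without that mouse in 4.57%, against 3%. Among the genes that fell at the step, 6.72% had a rising and 6.91% a falling slope, and without that mouse 2.73% and 2.63%. The median slope of the p53 targets of feedback and arrest was 1.20 per 100 cGy and 0.885 without that mouse, and that of the HECT and UBR ligases was -0.01 in both fits. Collagens had a median slope of -0.29 per 100 cGy, which was -0.003 without that mouse, and chromatin regulators one of -0.125 and -0.092.

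**Figure D5:**
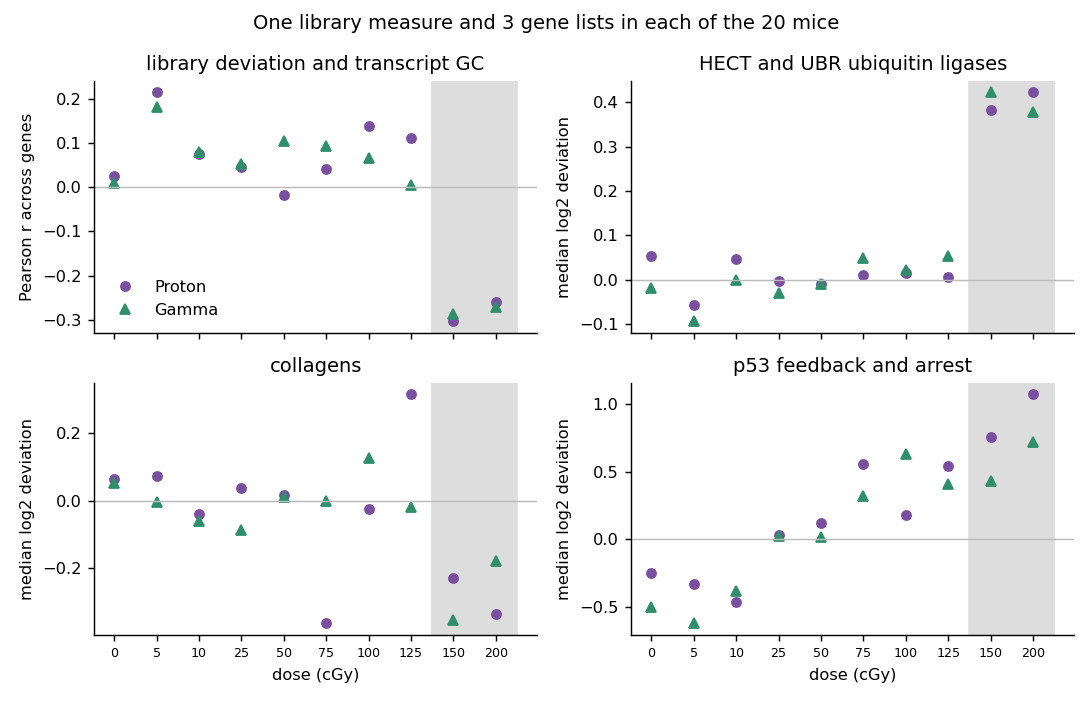
Pearson correlation of each library's deviation with transcript GC content (top left) and median log2 deviation of 3 gene lists from the mean of the 16 mice at 0 to 125 cGy (other panels) by dose in cGy (horizontal axes, evenly spaced), with circles for proton and triangles for gamma mice and a gray field over 150 and 200 cGy. HECT and UBR ligases lie between -0.094 and 0.054 in the 16 mice and between 0.377 and 0.422 in the gray field. The p53 targets go from -0.254 at 0 cGy to 0.554 at 75 cGy in proton mice and from -0.506 to 0.315 in gamma mice. At 100 and 125 cGy they lie at 0.179 and 0.541 in proton and at 0.628 and 0.404 in gamma mice. In the gray field they lie at 0.758 and 1.071 in proton and at 0.428 and 0.716 in gamma mice.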

How the data were processed

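RNA of the thoracic aorta of 20 mice was sequenced after polyA selection with strand-specific libraries. The authors aligned reads to mm9 with STAR 2.5.2a, resampled all libraries to a common depth with the PORT pipeline and deposited sense-strand counts per gene. The annotation used for counting was not given in the sources used here. All 21078 gene identifiers were found in GENCODE M1 of the same build, which gave GC content and length for 17148.

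Counts of the 8 mice were tested with edgeR 4.0.16 (R 4.3.3) by its quasi-likelihood test with TMM scaling and radiation type as covariate, on genes averaging 5 or more counts, at a Benjamini-Hochberg adjusted p of 0.1. The slope over 0 to 75 cGy was fitted likewise. DESeq2 1.42.0 was an alternative, as were other filters and scaling, single radiation types, each mouse left out, and offsets from curves of each library's deviation against GC content and length. Genes without an annotated coding transcript entered the last uncorrected. Library measures were compared by exact two-sided permutation of 4 against 4 mice, which has 70 splits. The fits were tested on simulated data.

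The members and gene lists were chosen with earlier results of these data known. Named genes were the 12 rising and 12 falling genes with the smallest p among those averaging 20 or more counts, and for each list its first 2 members or the up to 4 with the smallest p. Col1a1 and members named only to spell out a count were added after values were seen, as were the comparisons of neighboring doses, the slope without the proton mouse at 75 cGy and the corrected fits within a radiation type. The p-values measure the spread between mice of neighboring doses. Totals of 6055666 to 6058006 counts set the precision. A few genes are not reported here.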

Additional observations from a re-analysis of the deposited data

Results flagged for a closer look

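Values of single mice that stood apart within a group of 4 were found in 20 of 270 sets of 4 values, where chance gives about 1 in 20. Among marker sums, that of brown fat was highest at 1060 CPM in the gamma mouse at 100 cGy and at 714 in the proton mouse at 150 cGy. Medians of gene lists, as log2 deviations from the mean of the 8 mice after TMM scaling and not from the 16 mice used for the plot of lists by mouse, stood apart in the gamma mouse at 100 cGy for mitochondrial ribosomal proteins (0.194), oxidative phosphorylation (0.413), antioxidant genes (0.192) and nuclear long noncoding RNAs (-0.012, the lowest). The same held in the gamma mouse at 125 cGy for proteasome subunits (0.028, the highest) and elastic fiber genes (0.075, the lowest), and for proliferation genes in the proton mouse at 125 cGy (0.067) and the gamma mouse at 200 cGy (0.111).

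Counts of single genes stood apart in the proton mouse at 100 cGy for Mdm4 (85) and in the proton mouse at 125 cGy for Raver1 (445), Col6a2 (9571) and Col6a1 (7892). They did so in the proton mouse at 200 cGy for Mdm2 (686) and Trp53inp1 (1783, the lowest), in the gamma mouse at 125 cGy for Myocd (361), in the gamma mouse at 150 cGy for Igf2 (154) and Neat1 (10925), and in the gamma mouse at 200 cGy for Igf1r (223). For clock genes a difference in median level of 0.162 on the log2 scale between proton and gamma mice was flagged. The median change of the list at the step was 0.075 after proton and -0.116 after gamma radiation. The difference between the types was not tested.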

How the results depend on the processing

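No paired analysis was possible because the labels give the mice of the groups no shared replicate numbers. Against 1589 rising and 1029 falling genes as counted, 392 and 275 were called after correction for GC content and length. Of these, 341 and 193 had the same call without the correction, which also removes any response that follows composition. Between 125 and 150 cGy alone 1036 rose. Proton mice alone gave 527 and 216, gamma mice alone 290 and 36, and with the correction 60 and 10 for proton and 75 and 2 for gamma mice. At an adjusted p of 0.05, 614 fell. Leaving out each mouse gave 1115 to 1394 rising and 680 to 967 falling genes, and 1475 genes were called in all 8 such fits. The other scaling, filter, covariate and DESeq2 settings kept both counts within 1.5 times. Slopes over 0 to 75 cGy (56 rising, 9 falling) gave 96 and 68 with DESeq2, 2 and 0 without 75 cGy, 15 and 2 without the proton mouse at 75 cGy, and 23 and 0 with dose as a rank. With a mean count of 50 the group difference in GC correlation was -0.493 and in length correlation 0.332. The cause was not tested for these.

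After correction, list medians were 0.288 for p53 repair targets, 0.042 for DNA damage, 0.075 for ubiquitin ligases and for zinc fingers, 0.076 for chromatin, 0.085 for centrosome, -0.163 for elastic fiber and 0.016 for clock genes. With each mouse left out the medians ranged from 0.033 to 0.354 for p53 feedback, 0.178 to 0.27 for p53 repair, 0.15 to 0.236 for DNA damage, 0.214 to 0.305 for chromatin, 0.19 to 0.3 for centrosome, 0.019 to 0.142 for long noncoding RNAs, -0.412 to -0.226 for elastic fiber and -0.391 to -0.161 for collagens. They ranged from -0.018 to 0.164 for heat shock, -0.033 to 0.164 for the integrated stress response, -0.107 to 0.477 for glucocorticoid, -0.098 to 0.099 for clock, -0.126 to 0.12 for TGF-β and -0.082 to 0.056 for insulin-like growth factor genes.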
